A study of Mus musculus with 10 samples.

Results

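Trimethylated lysine 4 of histone H3 (H3K4me3) was mapped by ChIP-seq in R1E mouse embryonic stem cells that were either untreated or exposed to Adriamycin at 0.5 uM for 8 h. Each condition gave 1 H3K4me3 library, used here as the list of peaks the authors deposited. Every peak on chromosomes 1 to 19 and X was taken, 38415 untreated and 41699 Adriamycin peaks, together 80114 of the 543779 peaks in the 10 lists of the series. The cells had a mixed C57BL/6X129Sv background, had been kept for less than 20 passages and grew in serum medium with leukemia inhibitory factor. No other allele or agent is named in the labels. The lists of RNA polymerase II (Pol II), H3K79me2, H3K27me3 and hnRNP L, each also with 1 library per condition, serve to describe the H3K4me3 peaks. With 1 library per condition there is no replicate check, and no test of the treatment was possible. Every difference is one between 2 libraries of unknown read depth.

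H3K4me3 is laid down around transcription start sites by SET1 and MLL methyltransferases and is a mark of active and poised promoters. In embryonic stem cells it also lies with H3K27me3, the Polycomb mark, on bivalent promoters of developmental regulators, and wide H3K4me3 domains extend from some highly transcribed genes into the gene body. H3K79me2, written by DOT1L, covers the first part of transcribed genes and so lies mostly downstream of the promoter. Adriamycin (doxorubicin) poisons topoisomerase II and intercalates into DNA, which breaks DNA and disturbs nucleosomes. Genes are not named here, because no annotation on mm9, the build of the peak coordinates, was used.

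The labelled mark was checked against the other targets. Pol II peaks of the same condition overlapped 61.3% of untreated H3K4me3 peaks (Clopper-Pearson 95% interval 60.8 to 61.8%) and 49.6% of Adriamycin peaks (49.1 to 50.1%). The Pol II list itself was shorter after treatment, with 81060 peaks in untreated cells and 59422 after Adriamycin. H3K79me2 overlapped 38.4% and 33.9% of H3K4me3 peaks, and H3K27me3 28.1% and 23.5%. The RNA-binding protein hnRNP L overlapped 42 untreated (0.109%) and 39 Adriamycin peaks (0.0935%). Its lists were short, with 930 and 832 peaks, which limits these shares. Intervals here and later express counting error in 1 list, and variation among cultures was not measured.

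H3K4me3 peaks were more numerous and narrower in the Adriamycin list. Their summed length was 62.9 Mb in the untreated and 57.6 Mb in the Adriamycin list. The median width was 1271 bp in untreated cells (quartiles 805 and 2097 bp) and 1060 bp after treatment (640 and 1837 bp). The longest peak measured 33278 bp in untreated cells and 14635 bp after Adriamycin. Peaks under 500 bp numbered 1923 (5.01% of the list) and 5780 (13.9%), and peaks of 4000 bp and more numbered 1702 (4.43%) and 1106 (2.65%). The whole distribution was thus shifted to smaller widths, at its narrow and its wide end. The narrowest peaks shifted as well. The smallest width was 171 bp in the untreated list and 125 bp after Adriamycin, and the narrowest 1% of peaks lay below 360 bp and 241 bp. The lists of H3K79me2 (smallest widths 235 and 164 bp) and H3K27me3 (183 and 155 bp) had the same order, and that of Pol II the opposite order (135 and 184 bp). Median widths were also lower after Adriamycin for H3K79me2 (1143 and 934 bp) and H3K27me3 (715 and 603 bp), and nearly equal for Pol II (694 and 691 bp). H3K79me2 peaks were more numerous as well (63028 and 71934), and H3K27me3 peaks fewer (97635 and 88363). Narrower peaks were therefore common to the 3 histone marks and not particular to H3K4me3. The part of a shift shared by these libraries in the width differences was not tested.

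**Figure D1:**
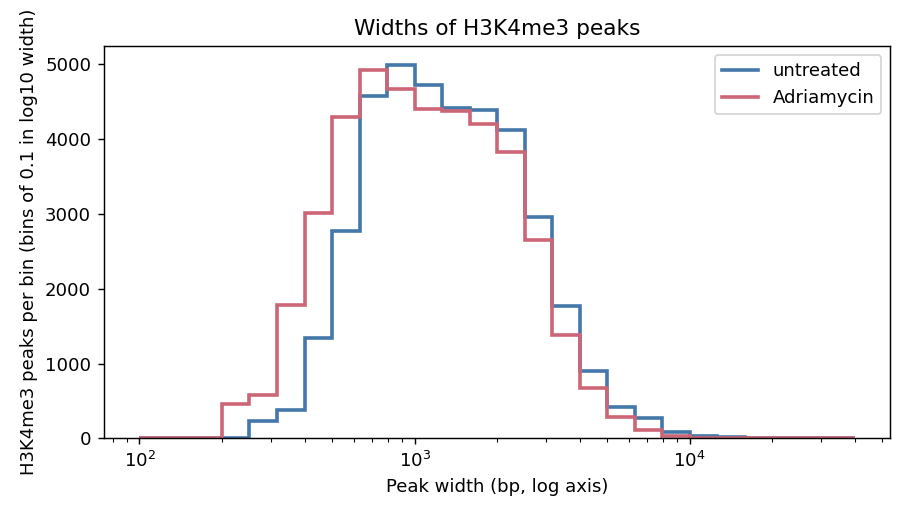
Number of H3K4me3 peaks (vertical axis) by peak width in bp (horizontal log axis, bins of 0.1 in log10 width) in the untreated and the Adriamycin list. The Adriamycin curve lies above the untreated curve at widths under 500 bp, where it holds 5780 peaks against 1923, and below it at the wide end.

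Narrow Adriamycin peaks were of 3 kinds. Of the 5780 Adriamycin peaks under 500 bp, 2837 (49.1%) had no untreated partner, a partner being a peak of the other list that overlaps by at least 1 bp. Another 689 (11.9%) were pieces of a wider untreated peak. The other 2254 (39.0%) matched 1 untreated peak 1 to 1, with median widths of 413 bp after treatment and 538 bp in untreated cells. In the untreated list pieces were rarer, at 33 of the 1923 narrow peaks (1.72%).

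Most H3K4me3 regions held 1 peak in each list. When both lists were joined into 44539 regions, 29705 (66.7%) held 1 untreated and 1 Adriamycin peak. Regions with an untreated peak alone numbered 5557 (12.5%), and those with an Adriamycin peak alone 6595 (14.8%). A single untreated peak stood against several Adriamycin peaks in 2217 regions (4.98%), and the reverse held in 308 (0.692%). The remaining 157 regions had several of each. The 29705 matched pairs kept their order closely. Across these sites Spearman's rho was 0.908 for width and 0.916 for score, the peak caller's value, which has a ceiling at 3100 that 6887 pairs reached in both lists. Below the ceiling in both lists, rho of the score was 0.811 over 21324 pairs. The pairs come from 2 libraries and are not independent replicates.

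The bases that only the untreated list covered lay mainly at peak borders. Untreated peaks covered 12.9 Mb that no Adriamycin peak covered. Of these, 7.25 Mb (56.4%) were outer edges of partnered peaks, 5.07 Mb (39.4%) whole peaks without a partner, and 0.536 Mb (4.17%) gaps between Adriamycin pieces of 1 untreated peak. Adriamycin peaks covered 7.56 Mb outside the untreated list, with 4.33 Mb (57.2%) in whole peaks, 3.15 Mb (41.6%) in outer edges and 0.0872 Mb (1.15%) in gaps. The net difference of 5.29 Mb was therefore made up of 4.11 Mb of edges, 0.738 Mb of whole peaks and 0.449 Mb of gaps.

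**Figure D2:**
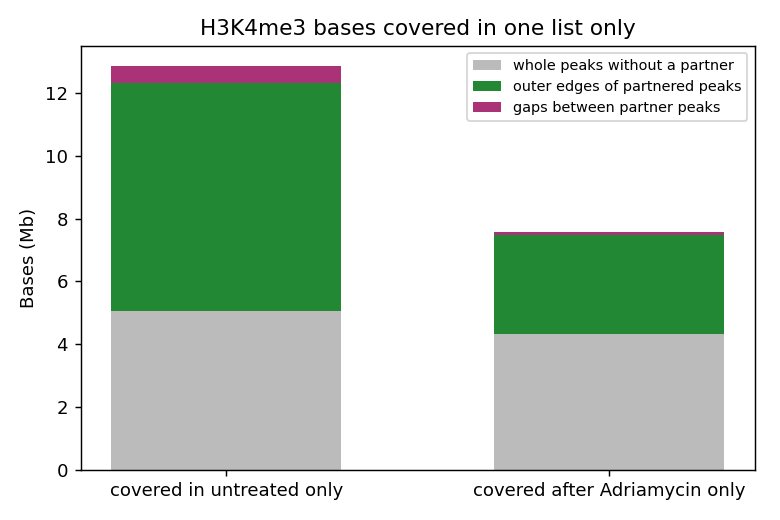
Bases in Mb (vertical axis) covered by H3K4me3 peaks of one list only, untreated at the left and Adriamycin at the right, divided into whole peaks without a partner, outer edges of partnered peaks and gaps between partner peaks. Whole peaks were nearly even at 5.07 and 4.33 Mb, and edges differed most at 7.25 and 3.15 Mb.

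Peaks matched 1 to 1 were narrower after Adriamycin in 20338 of 29705 pairs (68.5%) and wider in 9311 (31.3%). Changes of 500 bp or more were narrowings in 2786 pairs (9.38%) and widenings in 1138 (3.83%). Pairs were then grouped by the mean of both widths, so that neither list chose the class. The median difference, Adriamycin minus untreated, was -68.0 bp for pairs under 500 bp, -85.0 bp at 500 to 1000 bp, -89.0 bp at 1000 to 2000 bp, -117 bp at 2000 to 4000 bp and -228 bp at 4000 bp and more. In proportion to the untreated width these medians ran the other way, from -17.4% in the narrowest class to -4.41% in the widest. Narrowing was present in every width class, and by neither measure was it the same amount throughout.

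The width change differed by the marks that lay with H3K4me3. Pairs were sorted by marks present in both conditions, and all of the 3 marks not named were absent in both. In pairs of 2000 to 4000 bp mean width, H3K4me3 with Pol II and H3K79me2, as at transcribed genes, had a median difference of -154 bp (95% interval of the median over pairs -164 to -143 bp, 3848 pairs). H3K4me3 with all 3 marks had -109 bp (-143 to -76.0 bp, 312 pairs). H3K4me3 with Pol II alone had -85.0 bp (-113 to -68.0 bp, 545 pairs). H3K4me3 with Pol II and H3K27me3 had -20.5 bp (-46.0 to 8.00 bp, 398 pairs), and the bivalent combination with H3K27me3 alone had -29.0 bp (-54.0 to 0 bp, 420 pairs). Among these 5 classes, peaks with H3K27me3 and no H3K79me2 thus narrowed least. Those with Pol II and H3K79me2 narrowed most, within 1 width class and in the same 2 libraries. Inside this width class the median untreated width was 2747 bp with Pol II and H3K79me2 and 2320 bp with H3K27me3 alone. Score was not matched. The remaining classes of this size were small, with 53 pairs for H3K79me2 alone (-58.0 bp, interval -383 to 290 bp) and 51 pairs with none of the 3 marks (80 bp, -51.0 to 370 bp).

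The order was close to that in pairs of 1000 to 2000 bp. There the medians were -151 bp with Pol II and H3K79me2 (interval -162 to -140 bp), -122 bp with all 3, -98.0 bp with Pol II alone, -58.0 bp with Pol II and H3K27me3, and -36.0 bp with H3K27me3 alone (-44.0 to -26.0 bp). H3K79me2 without Pol II, in 342 pairs of this size, had -186 bp (-244 to -138 bp), and peaks with none of the 3 marks had -82.0 bp (-98.0 to -49.0 bp). At 2000 to 4000 bp, narrowings of 500 bp or more made up 17.4% of pairs with Pol II and H3K79me2 and 3.57% of pairs with H3K27me3 alone, against 15.0% of all pairs of that size. The bivalent value depended on which list defined the class. With classes from the untreated lists, the sorting that was planned, the median at 2000 to 4000 bp was 5 bp (-23.0 to 27 bp). With the Adriamycin lists it was -61.0 bp (-85.0 to -37.0 bp), so the sign of the bivalent value is not settled. Under both choices it stayed nearer to 0 than the value with Pol II and H3K79me2, which was -155 and -150 bp.

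**Figure D3:**
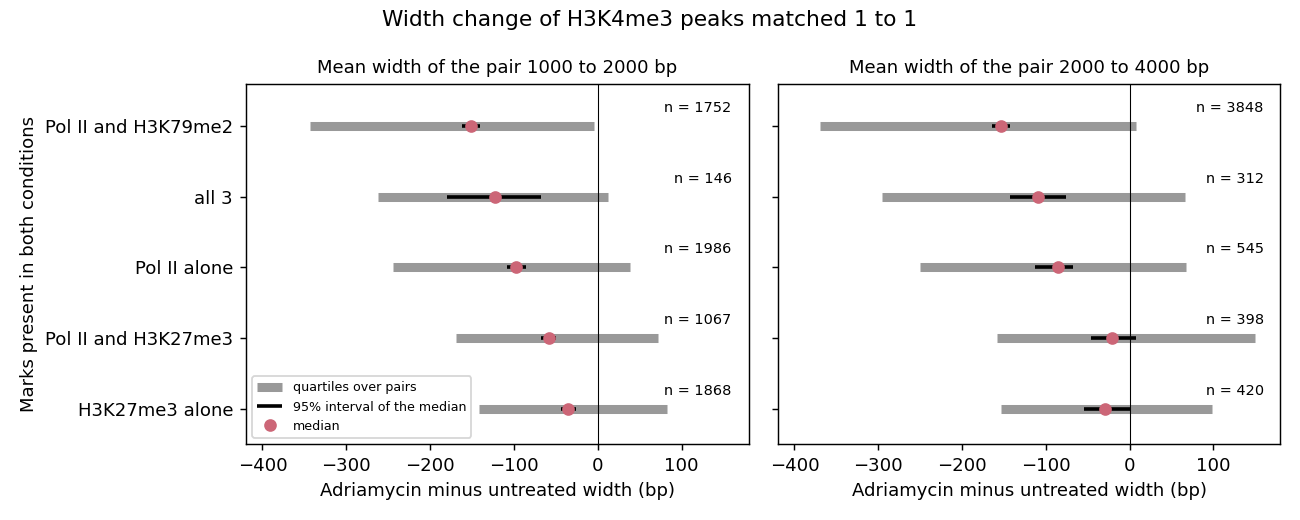
Difference in width, Adriamycin minus untreated, in bp (horizontal axis) of H3K4me3 peaks matched 1 to 1, by the marks present in both conditions (rows), for pairs of 1000 to 2000 bp (left) and 2000 to 4000 bp (right) mean width. Points are medians, black bars their 95% intervals, grey bars the quartiles and n the number of pairs. Medians lie at -151 and -154 bp with Pol II and H3K79me2 and at -36.0 and -29.0 bp with H3K27me3 alone. H3K79me2 alone and none of the 3 marks are not drawn.

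Width also moved with the presence of Pol II. In pairs of 2000 to 4000 bp, the median difference was -173 bp (interval -210 to -134 bp) at 539 pairs with a Pol II peak in untreated cells only. It was -127 bp at 5813 pairs with Pol II in both, -26.0 bp (-52.0 to 9 bp) at 601 pairs with Pol II in neither, and 127 bp (82.0 to 206 bp) at 94 pairs with Pol II after Adriamycin only. H3K4me3 peaks of this size with a new Pol II peak were thus mostly wider after treatment, in 73.4% of pairs (63.3 to 82.0%) against 32.5% of all pairs of that size. At 1000 to 2000 bp the same 4 groups had -169, -103, -50.0 and 21.0 bp. Narrower pairs with Pol II after Adriamycin only did not share this direction, with a median of -39.0 bp (-59.0 to -24.0 bp) in 451 pairs of 500 to 1000 bp. Over all 1051 pairs of this group the median was -6.00 bp (-21.0 to 8.00 bp), and 50.9% were narrower. For H3K27me3 the order was another one, here in pairs of any width and so not at like size. Pairs with an H3K27me3 peak in untreated cells only had a median of -19 bp (1772 pairs), and those with one in both -56.0 bp. Pairs with H3K27me3 in neither had -115 bp (-119 to -111 bp, 19590 pairs). Those with a peak after Adriamycin only had -132 bp (-149 to -110 bp, 468 pairs), whose interval overlaps that of pairs without the mark.

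The side of the peak was examined with H3K79me2, which reaches past 1 edge only of 6341 matched untreated H3K4me3 peaks. On the H3K79me2 side the edge had moved inward by a median of 79 bp (interval 74 to 84.0 bp), and on the opposite side by 60 bp (57.0 to 64.0 bp). The H3K79me2 side had moved inward more in 3380 pairs and the opposite side in 2954, a share of 53.4% (52.1 to 54.6%). This share was 53.6% (52.3 to 54.9%) of 5481 pairs with Pol II in both conditions. It was 50.3% (44.7 to 55.9%) of 324 pairs with Pol II in neither. Over all 6341 pairs, inward moves of any size were slightly fewer on the H3K79me2 side, at 69.3% of edges against 72.4% opposite. Large moves were more often on the H3K79me2 side. Inward moves of 500 bp or more were found at 601 edges there (9.48%) and 246 opposite (3.88%), against 3.82% of all 59410 edges of matched peaks. Outward moves of this size were also more frequent there, at 254 (4.01%) and 80 (1.26%), against 1.81% of all edges. The border towards H3K79me2 was therefore the more variable one in both directions, and more of its large moves were inward than outward. In the 324 pairs with Pol II in neither condition, large moves were nearly even, with 6.17% inward and 5.86% outward on that side. The opposite side had 4.94% and 2.47%.

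The sidedness differed between width classes. In pairs of 500 to 1000 bp the median inward moves were 56.0 bp on the H3K79me2 side and 58.0 bp opposite. At 2000 to 4000 bp they were 81.0 and 58.0 bp, and large inward moves made up 10.5% and 3.05% of edges. At 4000 bp and more the medians were 100 bp (74 to 140 bp) and 88.5 bp (75 to 119 bp), whose intervals overlap, and large inward moves made up 25.5% and 10.2%, and large outward moves 11.6% and 4.40%. Left and right edges on the chromosome had moved by 40 and 43.0 bp. For Pol II and H3K27me3 the order of the medians was the reverse. Where Pol II reached past 1 edge, that edge had moved by 41.0 bp and the other by 61.0 bp (6105 pairs), and for H3K27me3 the medians were 28.0 and 41.0 bp (3906 pairs). Where H3K27me3 reached past both edges, the median was 16.0 bp.

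**Figure D4:**
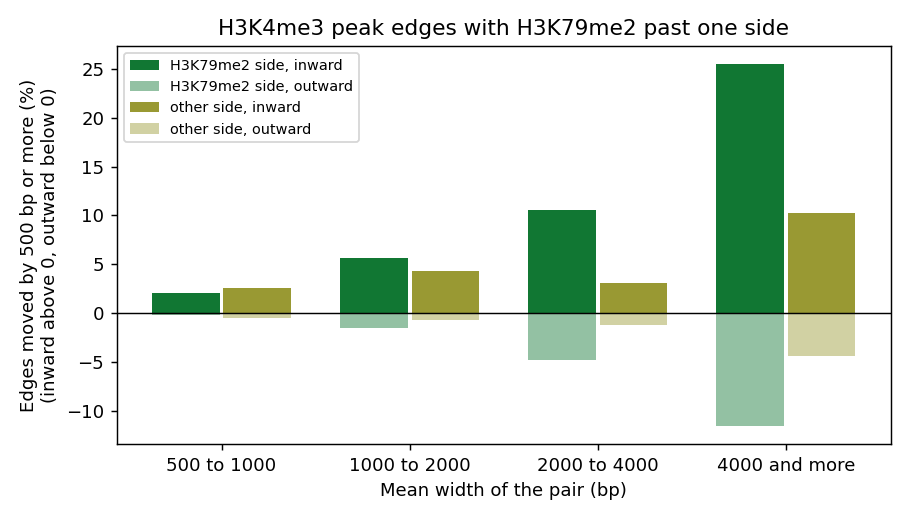
Share of H3K4me3 peak edges that moved by 500 bp or more (vertical axis, %, inward above 0 and outward below 0) by mean width of the matched pair in bp, for the side that H3K79me2 reaches past and for the other side. The H3K79me2 side had more large inward moves from 1000 bp upward, up to 25.5% against 10.2% in the widest class.

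The largest narrowings were found in wide domains, and in 4 of the 5 largest H3K79me2 covered over 90% of the untreated peak. The first was on chromosome 5 at 65194567-65208921. This untreated peak of 14355 bp faced an Adriamycin peak of 3691 bp with the same left border, while H3K79me2 covered 99.7% of it before and 99.2% after treatment and Pol II 86.1% and 35.0%. Immediately beside it, the untreated peak at 65188112-65194547 was split, with a gap of 3302 bp. The gap was under Pol II in 51.2% of its bases in untreated cells and in 0% after Adriamycin. On chromosome 9 at 62187743-62197741 the peak went from 9999 to 5472 bp and Pol II cover from 84.2% to 22.1%, with H3K79me2 at 98.7% and 99.1%. On chromosome 4 at 135727589-135734896 it went from 7308 to 2262 bp, and Pol II cover from 80.3% to 65.1%. In these 3 places H3K79me2 still covered over 90% of the bases that had been under H3K4me3.

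The 5 largest widenings ranged from 5086 to 7180 bp, and the 5 largest narrowings from -4400 to -10664 bp. The largest widening was on chromosome 1 at 134908830-134911567, from 2738 to 9918 bp, with scores of 399.53 untreated and 126.32 after Adriamycin. Score levels were not compared between lists of unknown read depth. No Pol II peak lay there in untreated cells, and Pol II covered 15.7% of the untreated peak after treatment. On chromosome 10 at 117145067-117149486 the width went from 4420 to 9780 bp, with scores of 2781.57 untreated and 230.97 after Adriamycin. This place also had no Pol II peak in untreated cells and 10.9% cover after treatment. Both Adriamycin peaks were thus wide, with scores below the median of their own list, 335. On chromosome 17 at 28369605-28371728 the width went from 2124 to 7563 bp, with Pol II nearly unchanged at 18.6% before and 19.8% after. On chromosome 6 at 115711528-115712753 it went from 1226 to 6443 bp, with Pol II at 55.9% before and 78.0% after. Scores rose at both, from 2222.51 to 2831.48 and from 83.97 to 641.79. The last of the 5, on chromosome 2 at 11522961-11525225, went from 2265 to 7351 bp. Its scores were 3100 untreated and 2271.59 after Adriamycin, and Pol II lay there in both conditions, with higher cover after treatment.

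Splitting was mainly a feature of wide peaks. Of untreated peaks, 2385 (6.21%) overlapped several Adriamycin peaks, and of Adriamycin peaks 466 (1.12%) overlapped several untreated peaks. The share that was split rose from 0.906% of untreated peaks of 500 to 1000 bp to 3.54% at 1000 to 2000 bp, 12.1% at 2000 to 4000 bp and 41.9% (39.5 to 44.3%) at 4000 bp and more. For Adriamycin peaks of 4000 bp and more it was 9.67% (8.00 to 11.6%). Most splits gave 2 pieces (2125 peaks), 212 gave 3 and 48 gave 4 or more, up to 7. No Adriamycin peak spanned more than 3 untreated peaks.

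Gaps inside split peaks were short. Among 2717 gaps in untreated peaks the median length was 77.0 bp (quartiles 35.0 and 175 bp), and 2098 (77.2%) were under 200 bp. The fragment length of the libraries is not known, and its part in gaps this short was not tested. Only 109 (4.01%) were 1000 bp or longer. The 471 gaps in Adriamycin peaks had a median of 63.0 bp. The largest piece held a median of 56.4% of a split untreated peak. Gap midpoints lay under H3K79me2 of untreated cells less often than midpoints of the pieces beside them, at 43.7% (41.8 to 45.6%) and 54.1% (52.7 to 55.5%). For Pol II these shares were 55.8% and 61.3%, and for H3K27me3 6.07% and 8.31%. When peaks within 1 kb were merged first, split untreated peaks fell to 583 and the reverse to 147, so most splits rested on gaps under 1 kb.

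Among untreated peaks of 2000 to 4000 bp, splitting also differed by class. It was 13.5% (12.6 to 14.5%) with Pol II and H3K79me2, 10.8% (9.07 to 12.7%) with Pol II alone, 9.64% with Pol II and H3K27me3 and 6.59% (4.66 to 9.01%) with H3K27me3 alone. H3K79me2 alone, in 156 peaks, had 17.3% (11.7 to 24.2%). The 5 longest untreated domains were all divided. The longest, on chromosome 12 at 87807275-87840552, became 7 peaks of 829 to 14011 bp that together covered 89.9% of it. The domain on chromosome 3 at 41358547-41377655 also became 7 peaks, covering 87.7%, while Pol II cover went from 95% to 56.8%. On chromosome 9 at 114452686-114474704 the 22019 bp became 6 peaks covering 86.7%, with Pol II at 74.9% before and 19.9% after. The remaining domains of the 5 longest, on chromosome 18, became 3 and 2 peaks covering 76.8% and 92.9%. Shorter domains were named for their number of pieces. That on chromosome 5 at 108499127-108510362 became 7 peaks covering 62.8%, with Pol II at 61.9% and 19.7%. That on chromosome 10 at 62339833-62357457 became 6 peaks covering 80.9%, with Pol II at 75.4% and 25.5%. There H3K79me2 cover went from 97.5% to 85.6%. H3K79me2 covered 94.7% or more of the domains on chromosomes 12, 3, 9 and 5 in both conditions. Most of the bases of every domain named here thus remained under H3K4me3 peaks.

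The reverse was seen on chromosome 7 at 26051923-26065987, where 1 Adriamycin peak of 14065 bp spanned 3 untreated peaks. Pol II covered 70.4% of it before and 99.7% after treatment, and H3K79me2 93.3% and 17.9%. H3K27me3 covered 19.7% in untreated cells and had no peak there after Adriamycin.

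Peaks found in 1 condition only were weak and narrow in both lists. The 5557 untreated peaks without an Adriamycin partner (14.5%) had a median width of 760 bp and a median score of 78.4. The 6595 Adriamycin peaks without an untreated partner (15.8%) had 539 bp and 76.7. Peaks with a partner had medians of 1420 and 1228 bp, and of 633 and 561 in score. The share without a partner fell from 44.4% of untreated peaks with scores of 50 to 100 to 7.04% at 200 to 500 and 0.0217% at the ceiling, where 2 of 9207 had none. In the Adriamycin list it fell from 48.3% to 5.05% and 0.0110%, with 1 of 9079 at the ceiling.

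The 3 ceiling peaks without a partner were singled out after their values were seen. The untreated peak on chromosome 5 at 113757336-113766796 (9461 bp) lay 3475 bp from the nearest Adriamycin peak. Pol II covered 98.2% of it before and 58.9% after, and H3K79me2 65.8% and 15.6%. The one on chromosome 18 at 77276186-77282543 lay 1489 bp away, with Pol II at 43.4% before and no Pol II peak after, and H3K79me2 at 82.1% and 81.4%. The Adriamycin peak, on chromosome 1 at 137661727-137668488, lay 16065 bp from any untreated peak. It was under Pol II (42.3% and 54.5%) and H3K79me2 (97.0% and 79.9%) in both conditions. The next highest Adriamycin peaks over 5 kb from the other list lay on chromosomes 5 (143189772-143195099) and 17 (33011936-33016464). They had Pol II peaks in untreated cells only.

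The location of these peaks differed between the lists. Of the untreated peaks without a partner, 2893 lay within 5 kb of an Adriamycin peak and 2664 (6.93% of the list) farther away. In the Adriamycin list 2373 lay within 5 kb of an untreated peak and 4222 (10.1%) farther away. The median distance to the other list was 4.65 kb and 9.22 kb. Adriamycin peaks over 100 kb from any untreated peak numbered 591, and the reverse 238. Peaks with none of the 3 marks in either condition made up 27.1% of the untreated ones (26.0 to 28.3%) and 40.9% of the Adriamycin ones (39.7 to 42.1%), and 12.6% of partnered peaks in both lists. The peaks found only after treatment were thus more often isolated and more often bare of the other targets. They were also narrower, with a median of 539 bp against 760 bp, and overlap with the other targets was not compared at like width.

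At like score, H3K4me3 peaks found only in untreated cells overlapped H3K79me2 and Pol II more often than partnered peaks and H3K27me3 less often, in each of the 3 score classes under 500. At scores of 200 to 500, H3K79me2 of untreated cells overlapped 54.0% of those without a partner (49.1 to 58.8%) and 22.0% of those with one (20.9 to 23.1%). Pol II overlapped 66.3% and 53.7%, and H3K27me3 4.72% (2.90 to 7.19%) and 34.5% (33.2 to 35.7%). At scores of 50 to 100 the same direction held, at 35.0% and 19.3% for H3K79me2, 37.4% and 30.1% for Pol II, and 12.6% and 24.3% for H3K27me3. Over all scores H3K79me2 overlapped 38.6% of unpartnered and 38.4% of partnered untreated peaks, Pol II 43.4% and 64.3%, and H3K27me3 11.4% and 30.9%. H3K79me2 lay at 54.3% of unpartnered untreated peaks within 5 kb of an Adriamycin peak and at 21.5% of those farther away. Peaks of equal score were not of equal width, with medians of 1530 and 1093 bp at 200 to 500 and of 667 and 664 bp at 50 to 100. In the Adriamycin list the differences were smaller or turned. At scores of 200 to 500, H3K27me3 of treated cells overlapped 21.6% of peaks without a partner (17.3 to 26.4%) and 27.1% of those with one (26.0 to 28.2%), the direction of the untreated list, while H3K79me2 was at 22.2% and 21.1% and Pol II at 37.4% and 39.9%. At scores of 100 to 200, H3K79me2 of treated cells overlapped 20.8% of its peaks without a partner and 23.0% of those with one, Pol II 27.9% and 28.3%, and H3K27me3 18.8% and 18.0%, each with overlapping intervals. At scores of 50 to 100 the order was turned, with H3K79me2 at 18.9% and 28.0%, Pol II at 19% and 22.4%, and H3K27me3 at 15.1% and 12.5%. The unpartnered peaks of that class were also narrower, with median widths of 481 and 564 bp.

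**Figure D5:**
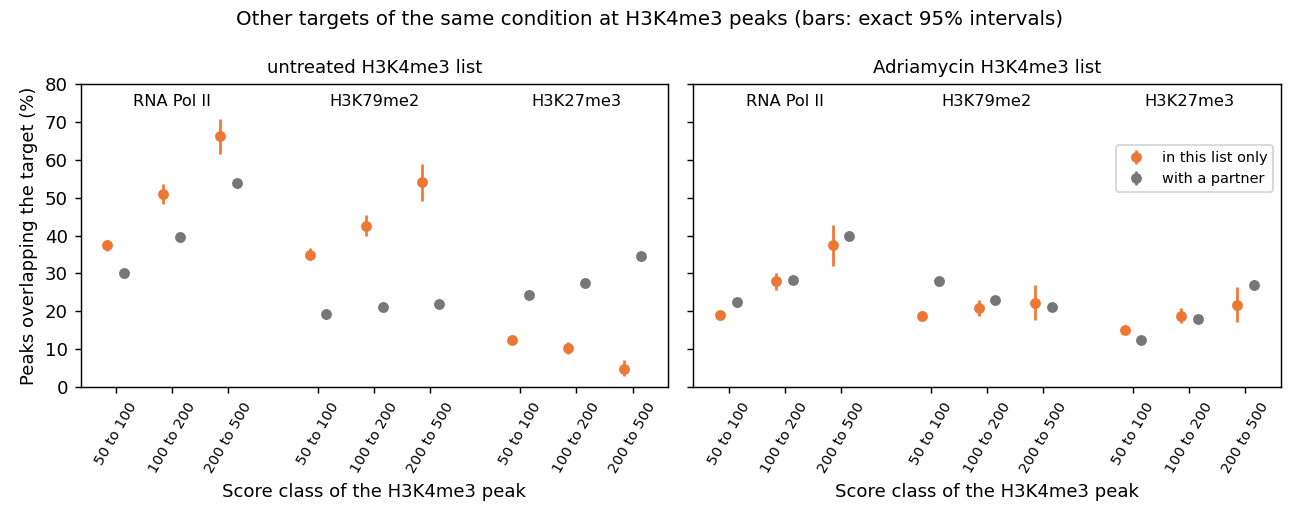
Share of H3K4me3 peaks that overlap Pol II, H3K79me2 or H3K27me3 of the same condition (vertical axis, %), by score class of the H3K4me3 peak, for peaks in this list only and peaks with a partner in the other list. Bars are exact 95% intervals. In the untreated list (left) the unpartnered peaks lie above the partnered ones for Pol II and H3K79me2 and below them for H3K27me3, and in the Adriamycin list (right) both lie closer together, with H3K79me2 lower in unpartnered peaks at scores of 50 to 100.

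Where an untreated H3K4me3 peak had no partner, its Pol II peak was usually missing after treatment and its H3K79me2 peak usually present. Of 2412 such peaks with Pol II in untreated cells, 1569 (65.0%, 63.1 to 67.0%) had no Pol II peak after Adriamycin, against 4190 of 21137 partnered peaks (19.8%, 19.3 to 20.4%). At scores of 200 to 500 the shares were 71.2% (65.5 to 76.4%) and 36.5% (34.7 to 38.2%). For H3K79me2, 232 of 2143 (10.8%, 9.54 to 12.2%) had none after Adriamycin, close to the 1206 of 12609 partnered peaks (9.56%, 9.06 to 10.1%). For H3K27me3 the share with no peak after Adriamycin was 38.7% of 633 unpartnered and 18.8% of 10157 partnered peaks.

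New Pol II peaks were looked for where H3K4me3 was found only after Adriamycin. Of 5076 such peaks without Pol II in untreated cells, 491 (9.67%, 8.87 to 10.5%) had a Pol II peak after treatment, against 1128 of 12415 partnered Adriamycin peaks (9.09%, 8.59 to 9.61%), which lies within that interval. At like score they stood apart, with 7.82% (6.97 to 8.74%) and 4.34% (3.63 to 5.14%) at scores of 50 to 100, and 20.4% (15.3 to 26.2%) and 9.47% (8.43 to 10.6%) at 200 to 500. Adriamycin peaks without a partner thus more often had a new Pol II peak than partnered peaks of like score. Missing Pol II peaks were also found. Of 1519 such peaks with Pol II in untreated cells, 541 (35.6%, 33.2 to 38.1%) had none after treatment, against 20.3% of partnered peaks. At like score the order was turned, with 39.7% and 51.4% at scores of 50 to 100, and 28.4% and 43.3% at 100 to 200. At 200 to 500 the shares were 25.2% (17.2 to 34.8%) and 33.4% (31.8 to 35.0%), whose intervals overlap. Pol II of untreated and of treated cells overlapped 23.0% and 22.3% of all Adriamycin peaks without a partner.

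Untreated peaks of low score had a partner more often where H3K27me3 was present. Among untreated peaks with scores of 100 to 200, a partner was found for 91.2% with H3K27me3 alone (89.4 to 92.8%), 93.8% of the 32 with all 3 marks, 88.8% with Pol II and H3K27me3 and 83.1% with none of the 3 marks. It was found for 75.9% with Pol II alone, 64.0% (60.7 to 67.2%) with Pol II and H3K79me2 and 62.8% (59.1 to 66.4%) with H3K79me2 alone. Over all scores the shares were 90.1% with Pol II and H3K79me2 (median score 3100), 91.9% with H3K27me3 alone (290) and 57.1% with H3K79me2 alone (107).

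All 20 chromosomes had more H3K4me3 peaks and less covered length in the Adriamycin list. The ratio of peak numbers, Adriamycin to untreated, lay between 1.04 on chromosome 13 and 1.12 on X, and that of covered length between 0.861 on chromosome 13 and 0.948 on chromosome 12. The median width difference of matched peaks was smallest on chromosome 12 (-64.0 bp) and largest on X (-113 bp). X also had the highest share of split peaks, 9.28% against 5.12 to 7.32% on the numbered chromosomes, and the highest shares with a partner, 88.9% of untreated peaks (86.8 to 90.9%) and 87.6% of Adriamycin peaks (85.4 to 89.5%). The intervals of the partner shares overlap those of chromosome 7 (86.5 to 89.0% and 85.2 to 87.7%). No interval was computed for the split shares, and X had the fewest untreated peaks, 959.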

How the data were processed

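The authors deposited 1 peak list per library, with a chromosome, start, end, name and score for each peak. The submitters' processing notes name MACS 1.4.1, CASAVA 1.8.2 and, as genome build, mm9. The deposited score is the peak caller's value, in MACS of this generation 10 times the negative log10 of the p-value, and was used to rank and class peaks within a list and, for matched peaks, to compare their order between lists. Fragment length, depth, input and duplicates: not given in the sources used here.

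Peaks of chromosomes 1 to 19 and X were compared, and 6 peaks of each H3K4me3 list lay elsewhere. Shares carry exact Clopper-Pearson 95% intervals and medians order-statistic 95% intervals over peaks. Regions were named by rank: the largest width changes, the most pieces, the widest peaks. Coordinates are 1-based. Alternatives were a score of at least 100, equal list lengths, merging within 1 kb, leaving out X, and a stricter overlap (a fraction of 0.5 of the shorter peak). Classes by marks in both conditions, edges at Pol II and H3K27me3, and classes from the Adriamycin lists were added after values were seen. Sorting peaks by marks of the untreated lists was planned. The members and comparisons were chosen with earlier results of these data known. Overlap and edge steps were tested on simulated data. Tables were computed with pandas 2.3.3, SciPy 1.17.1 and numpy 2.4.6 under Python 3.11.15, and plots drawn with matplotlib 3.10.9. Planned promoter counts by gene list were not run, as no mm9 annotation was used.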

Additional observations from a re-analysis of the deposited data

How the results depend on the processing

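Of 84 recomputed values, 57 stayed within the interval of the value reported, within 1.5 times of it for counts, or the same to 3 digits where there was no interval. Of the 84, 1 turned sign, the width difference with H3K27me3 alone, whose own interval reached 0. The surplus of Adriamycin peaks, 3284, was 2012 at a score of at least 100 and 1924 with peaks within 1 kb merged. The ratio of covered length, 0.916, was 0.913, 0.887 with equal list lengths, 0.920 merged and 0.917 without X. Untreated peaks with a partner (85.5%) were 87.6%, 82.7% and 87.9% at the score limit, with equal lengths and merged, and Adriamycin peaks with a partner (84.2%) were 86.8%, 87.7% and 84.6%. The list with the higher share thus turned with equal lengths. The median width difference, -90.0 bp, was -99.0 bp at the score limit. Split untreated peaks were 583 merged. Adriamycin peaks over several untreated ones were 294 at the score limit, 147 merged and 303 with an overlap of 0.5 of the shorter peak. The share of Adriamycin-only peaks with any of the 3 marks, 48.2%, was 56.1%, 49.8% and 45.6% in the same order as above, and 36.2% with the other targets at a score of at least 100. For untreated-only peaks, 70.8%, it was 77.8% at the score limit, 66.0% merged and 60.2% with the other targets limited. At 2000 to 4000 bp the median width difference with Pol II and H3K79me2 was -165 bp at the score limit. With H3K27me3 alone it was 5 bp and -61.0 bp with classes from the untreated and the Adriamycin lists. The causes of these shifts were not tested. Equal list lengths give no difference in peak number by construction. No paired analysis was possible because each target had 1 library per condition. Unknown read depth limits every comparison of weak peaks.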
